A study of Mus musculus with 6 samples.

Results

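The AP-1 subunits described here were the 10 genes Fos, Fosb, Fosl1, Fosl2, Jun, Junb, Jund, Atf3, Batf and Maff, of 18193 genes on the array that were named by a probe set of 1 gene. They were taken by name, and each probe set that the array annotation assigned to exactly 1 of these symbols was included. This gave 14 probe sets of 45037. Fosl1, Fosl2, Jun and Jund had 2 probe sets each and the other 6 genes had 1 each.

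The experiment compared injured carotid arteries of mice that overexpress IRF9, an interferon regulatory factor, in smooth muscle with those of control mice. The SMC-IRF9-TG mice carried full-length mouse IRF9 cDNA with an HA tag under a mouse SM22α promoter, which is active in smooth muscle, and the NTG mice were non-transgenic. Both groups were on a C57BL/6 background (C57BL/6J and male in the study's methods), were aged 10 to 12 weeks, underwent wire injury and had their arteries collected 14 days later. There was no uninjured group among these samples, and the labels do not name the transgenic line. Each group had 3 samples, numbered pools 1, 2 and 3 here, and each was a pool of 3 to 5 vessels run on its own Affymetrix array with 400 ng of total RNA. The pools are labelled as biological replicates, but which animals entered each is not said, and the p-values cover only the pool-to-pool spread.

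AP-1 is a family of transcription factors that bind DNA as dimers through a basic region and a leucine zipper. Jun proteins pair with one another or with Fos proteins, and Atf and Maf proteins enter further dimers with a preference for related sites. Fos, Jun and Atf3 are immediate-early genes, which respond within minutes to growth factors, cytokines and mechanical stress, and in the arterial wall AP-1 is known for its part in smooth muscle growth after injury and in the expression of matrix proteases and inflammatory genes.

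Fos and 1 of the 2 probe sets of Jun (1448694_at) were higher in SMC-IRF9-TG, while the other probe set of Jun (1417409_at) differed by -0.32 (limma adjusted p = 0.565) and Jun averaged over both was not called (limma adjusted p = 0.0763). The promoters of both genes are shown because their transcripts start there. The sequences are the 250 bases before the annotated start from RefSeq on GRCm38.p6, for Fos at chr12:85473640-85473889 on the plus strand and for Jun at chr4:95052223-95052472 on the minus strand, each written 5′ to 3′ on the strand of the gene. Capitals mark TGACG in Fos, the core of the site of the CREB and ATF proteins, and TGACATCA in Jun, a close relative of the AP-1 site. The motif of Jun was added to the search after its promoter had been read.
Fos promoter: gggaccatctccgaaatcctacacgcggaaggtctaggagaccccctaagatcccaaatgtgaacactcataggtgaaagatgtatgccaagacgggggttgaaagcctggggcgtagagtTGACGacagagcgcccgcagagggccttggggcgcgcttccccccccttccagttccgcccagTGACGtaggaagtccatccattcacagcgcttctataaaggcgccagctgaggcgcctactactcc
Jun promoter: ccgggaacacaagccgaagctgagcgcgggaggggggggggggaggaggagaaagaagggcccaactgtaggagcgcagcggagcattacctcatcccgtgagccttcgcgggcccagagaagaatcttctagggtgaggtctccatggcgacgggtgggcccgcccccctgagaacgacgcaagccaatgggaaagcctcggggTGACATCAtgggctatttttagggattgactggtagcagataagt

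The 6 arrays were alike in their median log2 level, between 3.42 and 3.66, and differed in other measures. The lower quartile was 2.57 to 2.66 in NTG and 2.33 to 2.41 in SMC-IRF9-TG. The lowest level was 0.43 to 0.47 in NTG and 1.07 to 1.16 in SMC-IRF9-TG. Neither measure overlapped between the groups, so the low end of the scale differed between them. Genotype and any difference in how the arrays of the 2 groups were handled cannot be told apart here. The mean lower quartile of 2.50, which marks dim probe sets below, lies between the quartiles of the 2 groups. Irf9 itself was at 4.75, 5.43 and 5.36 in NTG and at 5.46, 5.41 and 5.58 in SMC-IRF9-TG, a difference of 0.30 ± 0.23 (SE, limma adjusted p = 0.436). The position of this probe set relative to the transgene is not known here, so it does not check the labels. Among the NTG pools, pool 2 had the widest gap between the 3′ and 5′ probe sets of Actb, 7.09 log2 units against 1.56 to 3.04 on the other arrays, which is a measure of RNA integrity. Xist, a transcript of female cells, stood at 9.94 in NTG pool 1 and 9.50 in NTG pool 2 but at 2.94 to 4.08 on the other arrays, although the study states male mice. The poly-A controls averaged 5.03 in SMC-IRF9-TG pool 1 and 4.55 in its pool 2 but 7.53 to 11.75 elsewhere. The labelled tissue was borne out by the 10 contractile smooth muscle markers, whose summed level was 14.06 to 14.55 in NTG and 14.53 to 14.58 in SMC-IRF9-TG on the log2 scale, with 0 of 10 called. At an unadjusted p under 0.05 the count was also 0 with limma and 0 with the methods' t-test. The summed level of the 14 macrophage markers was 7.68 to 8.44 in NTG and 12.00 to 12.44 in SMC-IRF9-TG, and 13 of the 14 were higher. The 7 fibroblast markers summed to 12.43 to 12.52 in NTG and 14.27 to 14.39 in SMC-IRF9-TG, and 6 of the 7 were higher. Levels were summed on the linear scale, so the collagen genes Col1a2 and Col3a1, the highest of the 7 in both groups, weigh most in this sum. By the same rule 3.11% of all genes were higher. The 5 neutrophil markers summed to 9.43 in SMC-IRF9-TG pool 1 and 10.53 in its pool 2, but to 6.05 in pool 3 and 5.73 to 6.11 in NTG, with 0 of 5 called. At an unadjusted p under 0.05, 3 were higher with limma, where 14.9% of all genes were, and 0 with the methods' t-test, where 10.6% were. None of these markers was at 0. In a whole vessel, fewer cells of a type and less RNA per cell cannot be told apart, and the part of these cell types and arrays in the differences below was not tested.

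Of the 14 AP-1 probe sets, 3 were higher in SMC-IRF9-TG arteries, namely 1 each of Fos, Jun and Jund, 0 were lower and 11 did not pass an adjusted p of 0.05. Over the whole array, 2.37% of probe sets were higher and 0.373% were lower by the same rule. Without adjustment, limma gave 4 AP-1 probe sets higher and 2 lower at p under 0.05. Of all probe sets, 11.2% were higher and 11.1% lower by limma at that threshold. Likewise unadjusted, the methods' t-test gave the same 2 counts, where 7.9% of all probe sets were higher and 10.7% lower. After adjustment it left no AP-1 probe set in either direction. The 3 pools of one group did not overlap the 3 of the other in 6 AP-1 probe sets, and 31.4% of all probe sets had such groups. The median difference of the 14 was -0.01 on the log2 scale and that of all probe sets was -0.13. When each gene was taken by its probe set of highest mean, 2 of 10 subunits were higher, Fos and Jun, and 0 were lower, where 3.11% of all genes were higher and 0.511% were lower. For Jun that choice rests on the SMC-IRF9-TG pools, since in NTG alone its other probe set, which was not called, had the higher mean (6.01 against 5.35). For Fosl1, Fosl2 and Jund the same probe set had the higher mean in each group. The members are described in turn, by family.

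**Figure D1:**
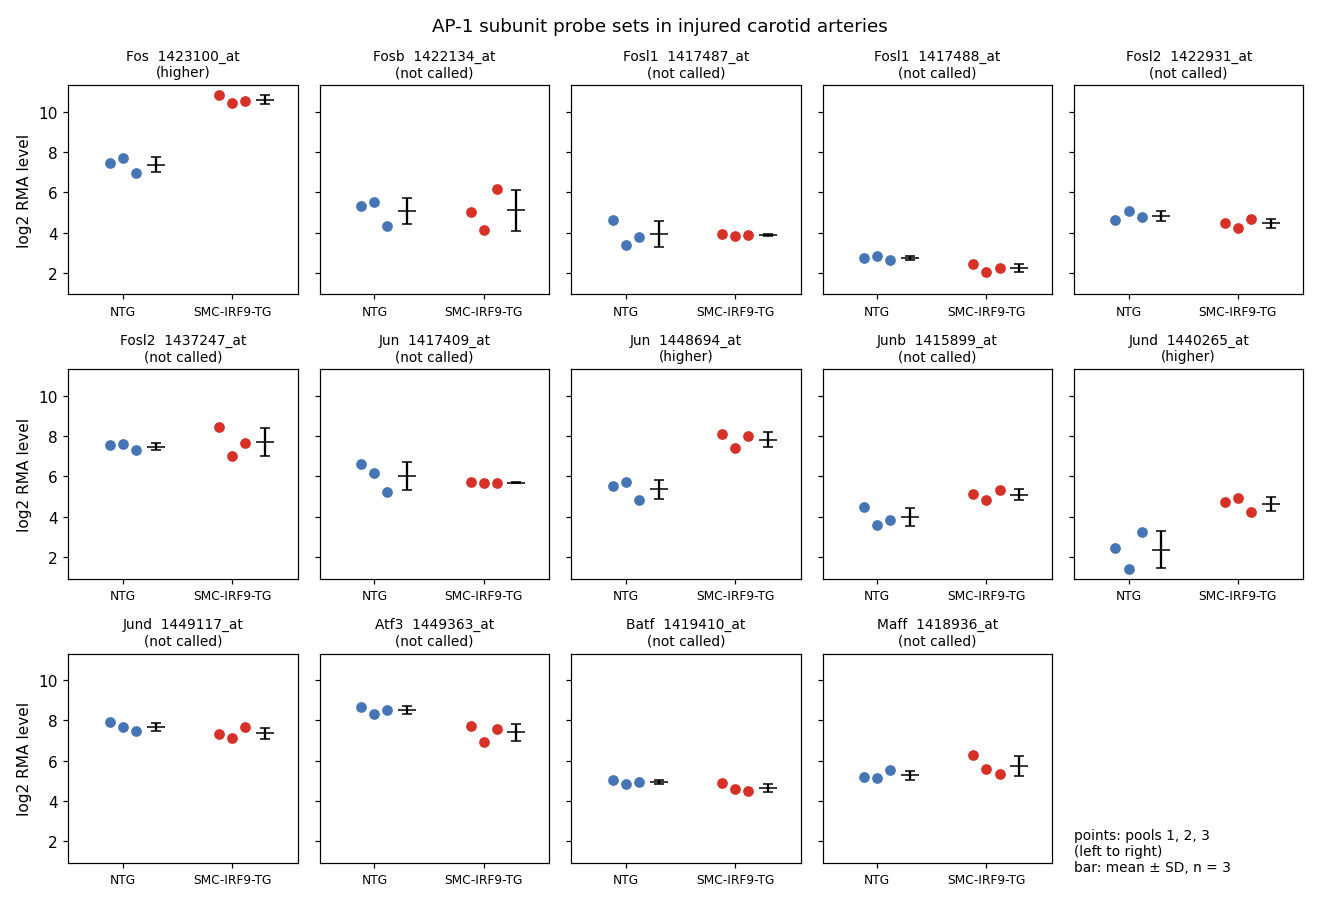
Log2 RMA level (y axis) of each of the 14 AP-1 probe sets in each pool of both groups (x axis), with points for pools 1 to 3 from left to right and bars for mean ± SD. The pools of the 2 groups lie apart for Fos, for 1 probe set each of Jun, Jund and Fosl1, for Junb and for Atf3 (downwards for Fosl1 and Atf3), and overlap for the other 8.

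Among the Fos proteins, which bind DNA only with a partner such as a Jun protein, Fos alone was called. Fos (probe set 1423100_at) encodes c-Fos, the immediate-early member with a strong transactivation domain. Its level was 7.47, 7.68 and 6.95 in NTG, in the order of pools 1, 2 and 3, and 10.84, 10.45 and 10.51 in SMC-IRF9-TG in the same order. The lowest SMC-IRF9-TG pool lay well over the highest NTG pool. The means were 7.37 ± 0.38 in NTG and 10.60 ± 0.21 in SMC-IRF9-TG (SD, n = 3), so Fos rose by 3.23 ± 0.24 log2 units (SE, 95% interval 2.68 to 3.79), which is 9.39-fold. The limma adjusted p was 7.7e-04, and Fos had rank 32 among all probe sets by its p. An exact permutation test gave p = 0.1, the smallest 2-sided value that 3 pools against 3 allow. Fos is on a list of SIRT1-related genes that the study chose on these same arrays, as are the called probe sets of Jun and Jund, so these directions are not independent of that choice.

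The call for Fos was kept without any one of the 6 pools, with differences of 3.02 to 3.39 and adjusted p of 0.00182 to 0.00972. It was lost with the methods' t-test (adjusted p = 0.0892). Against NTG pool 3, the NTG array with low Xist, the mean of the SMC-IRF9-TG pools was higher by 3.65, and SMC-IRF9-TG pool 3, the array of that group with poly-A controls like those of NTG, was higher than the NTG mean by 3.14.

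The remaining Fos genes were not called. Fosb (1422134_at), the other classical immediate-early Fos gene, read 5.33, 5.52 and 4.34 in NTG and 5.02, 4.11 and 6.16 in SMC-IRF9-TG. The groups overlapped throughout, and the pools of SMC-IRF9-TG differed more from one another (SD 1.03) than those of any other AP-1 probe set. The difference was 0.03, with a 95% interval from -1.13 to 1.19.

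Fosl1 encodes Fra-1 and Fosl2 encodes Fra-2, Fos proteins that lack the transactivation domain of c-Fos and appear later after a stimulus. Fosl1 read 4.63, 3.39 and 3.76 in NTG and 3.95, 3.81 and 3.88 in SMC-IRF9-TG with probe set 1417487_at, a difference of -0.05 (95% interval -0.74 to 0.65). With 1417488_at it read 2.73, 2.86 and 2.64 in NTG and 2.42, 2.05 and 2.24 in SMC-IRF9-TG. These groups did not overlap, but the adjusted p was 0.179 and the SMC-IRF9-TG mean of 2.24 lay under the mean lower quartile of the arrays, 2.50, so that no size of change is given.

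Fosl2 read 7.55, 7.59 and 7.29 in NTG and 8.44, 7.02 and 7.66 in SMC-IRF9-TG with 1437247_at. The SMC-IRF9-TG pools lay on both sides of the NTG pools, and the difference was 0.23 ± 0.34 (SE). With 1422931_at it read 4.63, 5.09 and 4.76 in NTG and 4.47, 4.23 and 4.65 in SMC-IRF9-TG, a difference of -0.38 (95% interval -0.87 to 0.11, limma adjusted p = 0.31). The groups overlapped for both probe sets. The change of 1 probe set against the other was -0.61 for Fosl2, and no size is given for Fosl1, where 1417488_at was dim. An exact permutation test, 2-sided, gave p = 0.4 for Fosl1 and 0.2 for Fosl2. After Benjamini-Hochberg adjustment over the 4 genes with a pair of probe sets these were 0.4 and 0.267. With 3 pools against 3 this test cannot go below 0.1, so it cannot show whether the probe sets of a gene differ or change alike.

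Jun encodes c-Jun, which dimerizes with itself and with Fos proteins and is the main target of the JNK kinases. With probe set 1448694_at its level was 5.52, 5.70 and 4.84 in NTG and 8.09, 7.40 and 7.98 in SMC-IRF9-TG. The groups did not overlap. The means were 5.35 ± 0.45 and 7.82 ± 0.37 (SD, n = 3), a rise of 2.47 ± 0.29 log2 units (SE, 95% interval 1.81 to 3.13), or 5.54-fold, with a limma adjusted p of 0.00505 and an exact permutation p of 0.1.

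The other probe set of Jun, 1417409_at, read otherwise. Its levels were 6.61, 6.17 and 5.24 in NTG and 5.73, 5.65 and 5.69 in SMC-IRF9-TG. The NTG pools lay on both sides of the SMC-IRF9-TG pools, which had an SD of 0.04, and the difference was -0.32 (95% interval -1.06 to 0.43, limma adjusted p = 0.565). Both probe sets are assigned to Jun through the same sequence record in the array annotation. Within an array, 1448694_at minus 1417409_at ran from -1.09 to -0.40 in NTG and from 1.76 to 2.36 in SMC-IRF9-TG. The zero of that scale has no meaning, because probe sets bind with different strength, but the shift between the groups was 2.79 log2 units without overlap (exact permutation p = 0.1, the smallest possible, and 0.2 after adjustment over the 4 genes). When the probe sets of a gene were averaged, Jun was higher by 1.08 with a limma adjusted p of 0.0763, which ends its call.

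The rise of Jun 1448694_at was called without any one of the 6 pools, with differences of 2.21 to 2.68 and adjusted p of 0.00989 to 0.0284. It was lost with the methods' t-test (adjusted p = 0.115). A block for the 2 arrays of low poly-A controls was chosen after seeing the data. It leaves SMC-IRF9-TG pool 3 alone against the NTG pools, with a difference of 2.62. Against NTG pool 3 alone the mean of the SMC-IRF9-TG pools was higher by 2.98 for 1448694_at and by 0.45 for 1417409_at. That is the same comparison as a block for high Xist.

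Junb encodes JunB, which forms weaker homodimers than c-Jun and can oppose it at shared sites. It read 4.49, 3.61 and 3.83 in NTG and 5.11, 4.84 and 5.35 in SMC-IRF9-TG (1415899_at). The groups did not overlap, with means of 3.98 ± 0.46 and 5.10 ± 0.25 (SD, n = 3). The difference was 1.12 ± 0.27 log2 units (SE, 95% interval 0.51 to 1.74), and its limma adjusted p of 0.0703 did not pass. Without NTG pool 1, the highest of its group, the difference was 1.38 and passed (adjusted p = 0.0481), and without the other pools in turn the adjusted p was 0.0902 to 0.23.

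Jund encodes JunD, the Jun protein that many resting cells hold at a steady level. The calls of its 2 probe sets were also unlike. With 1440265_at it read 2.44, 1.40 and 3.23 in NTG and 4.72, 4.91 and 4.25 in SMC-IRF9-TG, without overlap, and was called higher (limma adjusted p = 0.0309). The NTG mean of 2.36 ± 0.92 lay under the mean lower quartile of the arrays, 2.50, so the size of the rise is not known. With 1449117_at Jund read 7.89, 7.65 and 7.45 in NTG and 7.32, 7.10 and 7.65 in SMC-IRF9-TG, a difference of -0.31 (95% interval -0.82 to 0.20, limma adjusted p = 0.415) with overlapping groups.

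The 2 probe sets of Jund rest on different sequence records in the annotation. Within an array, 1440265_at minus 1449117_at did not overlap between the groups (exact permutation p = 0.1, and 0.2 after adjustment over the 4 genes). No size of this shift is given, because it rests on the dim NTG level of 1440265_at. The call for 1440265_at was lost without NTG pool 1 (adjusted p = 0.0915) and without SMC-IRF9-TG pool 1, 2 or 3 (0.113, 0.145 and 0.0716), and held without NTG pool 2 or 3 (0.03 and 0.018). It was also lost with the methods' t-test (0.193). The blocks for high Xist and for low poly-A controls, both chosen after seeing the data, each leave 1 pool in a group. No size is given with them for this dim probe set. Jund by the mean of its probe sets was not called (limma adjusted p = 0.0581).

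**Figure D2:**
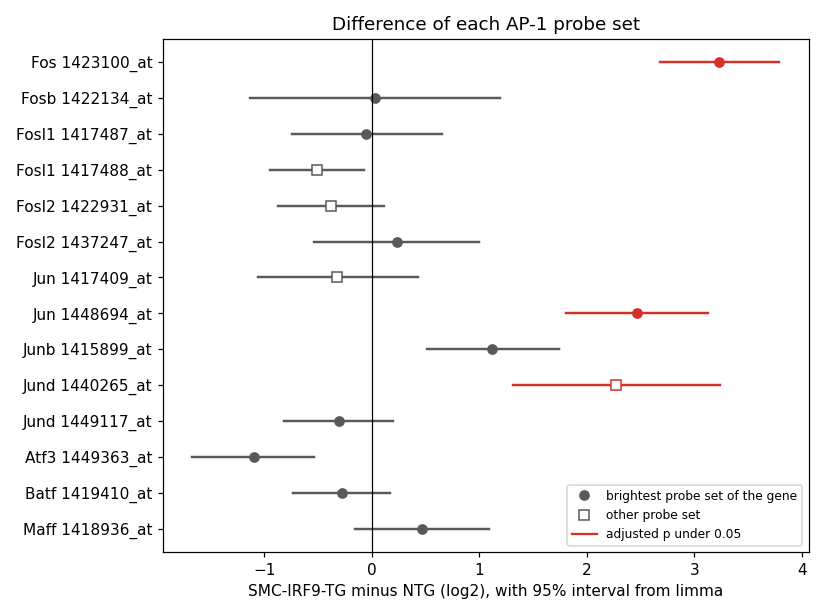
Difference between SMC-IRF9-TG and NTG (x axis, log2) of each AP-1 probe set (y axis) with its 95% interval from limma. Filled circles are the probe set of highest mean of a gene, open squares the other one, and red marks an adjusted p under 0.05. The intervals of Fos, Jun 1448694_at, Junb and Jund 1440265_at lie above 0, and those of Fosl1 1417488_at and Atf3 lie below it.

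Atf3, Batf and Maff belong to the wider family. Atf3 encodes a stress-induced factor that as a homodimer mostly represses transcription. It was the member with the most negative difference, reading 8.67, 8.31 and 8.53 in NTG and 7.71, 6.94 and 7.55 in SMC-IRF9-TG (1449363_at). Each SMC-IRF9-TG pool lay below each NTG pool, and the means were 8.51 ± 0.18 and 7.40 ± 0.41 (SD, n = 3). The difference was -1.10 ± 0.25 log2 units (SE, 95% interval -1.67 to -0.54), which is 2.15-fold lower, and its limma adjusted p was 0.0574. It passed where probe sets under the median level were left out (adjusted p = 0.0435) and where probe sets of a gene were averaged (0.0453), both with the same difference and fewer features tested. Against NTG pool 3 alone the SMC-IRF9-TG mean differed by -1.13.

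Batf encodes a factor that pairs with Jun proteins in lymphoid and myeloid cells. It read 5.03, 4.82 and 4.96 in NTG and 4.89, 4.57 and 4.51 in SMC-IRF9-TG (1419410_at), a difference of -0.28 (95% interval -0.73 to 0.17, limma adjusted p = 0.401). Maff encodes a small Maf protein, which has no transactivation domain. It read 5.17, 5.12 and 5.52 in NTG and 6.29, 5.57 and 5.35 in SMC-IRF9-TG (1418936_at), a difference of 0.47 (95% interval -0.16 to 1.09, limma adjusted p = 0.33). The groups overlapped in both, and the difference of Maff rested most on SMC-IRF9-TG pool 1.

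The pools of a group kept a partly shared order across the members. SMC-IRF9-TG pool 2 was the lowest of its group in 11 of the 14 AP-1 probe sets, where it was the lowest in 41.9% of all probe sets. SMC-IRF9-TG pool 1 was the highest in 9 of 14 and the lowest in 0, and over all probe sets it was the highest in 36.1%. Among the controls, NTG pool 3 was the lowest in 7 of 14, against 28.9% over all probe sets. The median SD within a group was 0.31 in NTG and 0.27 in SMC-IRF9-TG for AP-1 probe sets, and 0.34 and 0.17 for all probe sets.

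**Figure D3:**
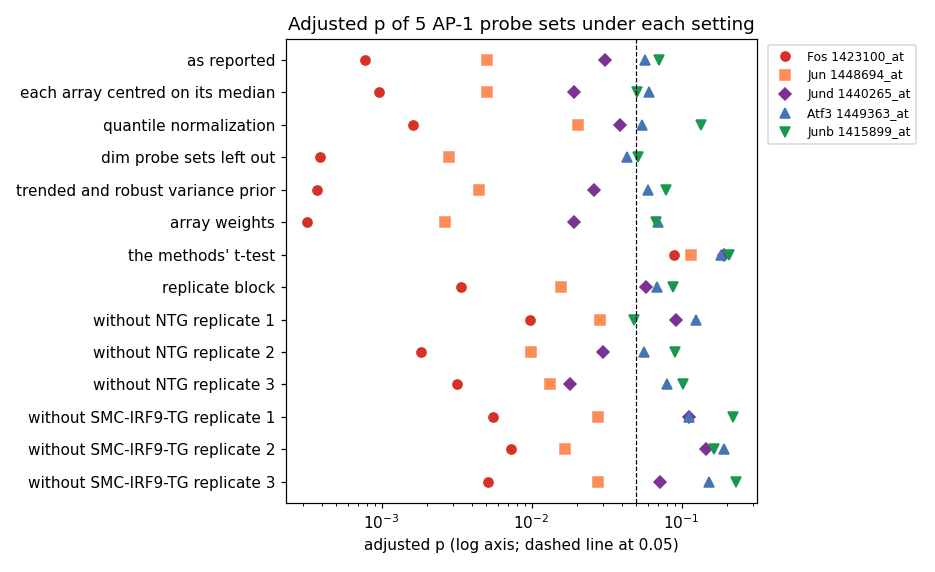
Limma adjusted p (x axis, log scale, dashed line at 0.05) of the 5 AP-1 probe sets of lowest p. The y axis holds each planned setting that keeps single probe sets, the methods' t-test included. The planned averaging of the probe sets of a gene is not drawn. With it Jun was not called (limma adjusted p = 0.0763) and Atf3 was (limma adjusted p = 0.0453). The blocks for Xist and poly-A controls, added after seeing the data, are not drawn either. In these settings Fos and Jun 1448694_at stay left of the line except with the methods' t-test, Jund 1440265_at lies right of it in 6 of its 12 alternatives, and Atf3 and Junb lie near or right of it.

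The promoter windows of the members, from 250 bases before to 50 after each annotated start, were searched on both strands for sites of factors that act with AP-1 or IRF9. RefSeq gave 11 windows for 9 of the 10 members, 3 of them for Maff, and no window was given for Fosl1. The AP-1 site TGACTCA was in 0 of the 11 windows and in 5.2% of all 32851 promoters. The core TGACG, which the longer TGACGTCA contains, was in 7 of 11 windows, those of Fos, Fosb, Junb, Atf3, Batf and 2 of Maff, and in 20.8% of all promoters. The full TGACGTCA was in 1 window of Maff and in 1.79% of all, and TGACATCA was in the window of Jun and 1 of Maff and in 3.62% of all. The core of the interferon-stimulated response element that IRF9 complexes bind, a pair of GAAA runs 2 bases apart, was in the window of Fosl2 alone among the members, on the opposite strand, and in 3.44% of all. The CArG box, the site of serum response factor, was in 0 of 11 windows and in 1.63% of all. Sites farther from the start than these windows were not searched, so an absence here does not mean that a gene lacks the site. In content of G and C, 8 of the 11 member windows lay above the median of all promoters, 52.7%.

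The sites are printed below with 10 bases on each side, because the core was shared by members that were called and members that were not. Capitals mark the motif, positions count back from the base before the start, and each line reads 5′ to 3′ on the strand that holds the motif as written.
Fos, -129 to -125: ggcgtagagtTGACGacagagcgcc
Fos, -66 to -62: ttccgcccagTGACGtaggaagtcc
Fosb, -60 to -56: gagttgcgggTGACGcaagcgcggg
Jun, -45 to -38: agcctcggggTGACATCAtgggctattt
Junb, -106 to -102: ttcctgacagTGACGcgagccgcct
Batf, -98 to -94: tctaacttgtTGACGtttccgccca
Maff, -29 to -25: gctggggcggTGACGtcactgcatg
Maff, -122 to -118, opposite strand: agggggaggaTGACGgagggtggaa
Maff, -45 to -38: tggagccatgTGACATCAgtgtttgttc
The windows lie, on GRCm38.p6 and over the 250 bases before each start, at chr7:19310046-19310295 (minus strand) for Fosb, chr8:84978749-84978998 (minus strand) for Junb, chr12:85686470-85686719 (plus strand) for Batf and chr15:79347270-79347519 and chr15:79348152-79348401 (both plus strand) for Maff. The first site listed for Maff lies in the first of its windows, where the core runs on into the full TGACGTCA, and the other 2 lie in the second. The core of Atf3 lies at -7 to -3 on the opposite strand, too near the start to print with both flanks. A match of letters is a description of the sequence, not of binding.

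The genes around the subunits were taken from 3 lists of other leucine zipper partners, of kinases and factors upstream and of genes known as AP-1 targets, each gene by its probe set of highest mean. Of 23 measured partners, 2 were higher, 0 were lower and 21 were not called, with a median difference of 0.39 on the log2 scale where that of all genes was -0.05. Of all genes, 3.11% were higher and 0.511% lower by this rule. Without adjustment 9 partners were higher and 1 was lower by limma, against 14.9% and 9.81% of all genes, and 5 and 0 by the methods' t-test, against 10.6% and 9.18%. Maf (1456060_at), a large Maf protein expressed in macrophages, rose from 4.27 ± 0.70 to 6.44 ± 0.14 (SD, n = 3), by 2.18 with an adjusted p of 0.0144. Mafg (1448916_at), a small Maf protein, rose from 4.04 ± 0.65 to 5.81 ± 0.13, by 1.76 with an adjusted p of 0.0267. Atf4, a factor of the integrated stress response, and Nfe2l2, which encodes the antioxidant regulator Nrf2, were not called, with differences of 0.67 and 0.63 (limma adjusted p = 0.22 and 0.193). Without NTG pool 1 limma called 0 partners (10 higher unadjusted), and without SMC-IRF9-TG pool 1, 2 or 3 also 0 (5, 6 and 8 higher unadjusted).

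Of 25 measured kinases and factors upstream, 2 were higher, 0 were lower and 23 were not called, with a median of 0.21, beside the 3.11% and 0.511% of all genes. The unadjusted counts were 8 and 0 by limma and 6 and 0 by the methods' t-test, beside the unadjusted shares of all genes given for the partners. Dusp6 (1415834_at), a phosphatase induced by ERK that inactivates ERK, rose from 6.34 ± 0.22 to 7.90 ± 0.26, by 1.56 with an adjusted p of 0.0106. Elk3 (1448797_at), a partner of serum response factor, rose from 5.94 ± 0.41 to 7.22 ± 0.09, by 1.28 with an adjusted p of 0.0322. Dusp1, an immediate-early phosphatase of the stress kinases, differed by 0.04 (95% interval -0.48 to 0.55) and Mapk14, the p38α kinase, by 0.16 (95% interval -0.77 to 1.09). Without SMC-IRF9-TG pool 1 or 3 limma called 0 genes of this list (7 and 6 higher unadjusted), and 1 was called without SMC-IRF9-TG pool 2 or NTG pool 1.

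Of 28 measured targets, 12 were higher, 1 was lower and 15 were not called, with a median of 0.75, where 3.11% of all genes were higher and 0.511% lower. In 5 of the 28 a group mean lay under the mean lower quartile of the arrays, among them the called Il6 and Mmp13. Where probe sets under the median level were left out, 10 targets were higher. Timp1 (1460227_at), an inhibitor of metalloproteinases, rose from 5.59 ± 0.10 to 9.08 ± 0.51 (SD, n = 3), by 3.49 with an adjusted p of 8.6e-04. Mmp2 (1439364_a_at), a gelatinase, rose from 7.59 ± 0.06 to 10.90 ± 0.23, by 3.32 with an adjusted p of 3.2e-04. The inflammatory genes Ptgs2 (1417262_at), which encodes cyclooxygenase-2, and Il1b (1449399_a_at), a cytokine of myeloid cells, rose by 2.19 and 2.17 (limma adjusted p = 0.00272 and 0.00787). Cd44 (1434376_at), a receptor of hyaluronan, rose by 2.14 (limma adjusted p = 0.0316). Vim, an intermediate filament gene, and Gja1, a gap junction gene, differed by 0.57 and 0.72 and were not called (limma adjusted p = 0.136 and 0.178). The one lower target was Hmox1, which encodes the haem-degrading enzyme, with a difference of -1.97 and an adjusted p of 0.00799, and it was chosen for naming after its value was seen. Mmp2, Il1b and Hmox1 are on the list of SIRT1-related genes that the study chose on these same arrays. So are Il6, Ccl2, Fn1 and Myc among the other called targets. Ccnd1, which was called, and Mmp9 (1416298_at), which was not, are listed there by probe sets other than those read here. The listed probe set of Mmp9 was therefore not read in these counts. The target counts beside all genes are therefore not independent of that choice. The macrophage and fibroblast marker sums given above were higher in the same pools, and the part of those cells in the target counts was not tested. Without any one of the SMC-IRF9-TG pools, 6 targets were higher, against 8 without NTG pool 1 and 11 without NTG pool 2 or 3.

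**Figure D4:**
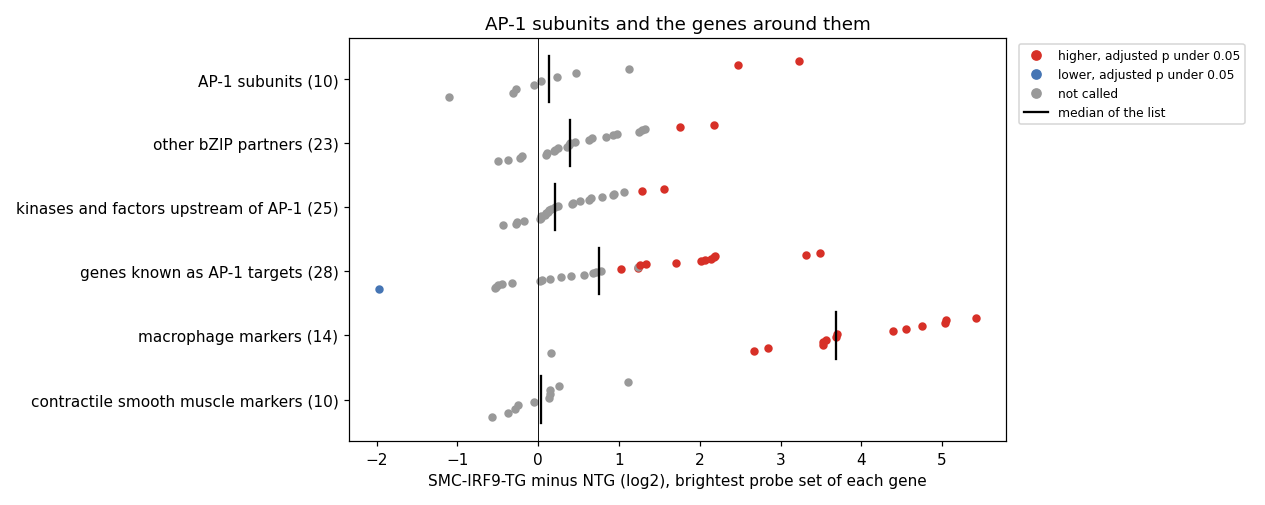
Difference between SMC-IRF9-TG and NTG (x axis, log2) of each gene by its probe set of highest mean, in the AP-1 subunits, the 3 lists around them and the macrophage and contractile smooth muscle markers (y axis, number of genes in brackets). Red and blue points are called higher and lower, grey ones are not called, and the black tick is the median of a list, which lies at 0.13 for the subunits, 0.75 for the targets, 3.69 for the macrophage markers and 0.04 for the contractile markers.

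The genes whose profiles lay nearest to those of the called subunits were found by the root-mean-square difference of log2 profiles over the 6 arrays, each centred on its own mean. For Fos these were Cxcr4 (1448710_at, 0.149), Flrt2 (1455096_at, 0.212) and Lpl (1431056_a_at, 0.23). Nearest to Jun 1448694_at were Cxcl12 (1448823_at, 0.181), Col1a2 (1423110_at, 0.19) and Cd83 (1416111_at, 0.193). Nearest to Jund 1440265_at were Nudcd2 (1449140_at, 0.22), Lman1 (1428129_at, 0.221) and Arsj (1457827_at, 0.227). The likeness covers the spread within the groups as well as the shift between them, over 6 arrays only. In the controls Sirt1, the gene the study placed downstream of IRF9, read 7.43, 7.52 and 6.62. It read 4.99, 4.82 and 4.89 in SMC-IRF9-TG, a fall of 2.29 (1418640_at, limma adjusted p = 0.00482) opposite in direction to Fos. Both probe sets are on the list of SIRT1-related genes that the study chose on these same arrays. Their directions are therefore not independent of that choice.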

How the data were processed

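Total RNA of 6 pools of injured mouse carotid arteries was hybridized to Affymetrix arrays. The table the authors deposited holds log2 levels per probe set, for which the submitters' processing notes name RMA (background correction, quantile normalization and summary of the probes) and Affymetrix Expression Console. Versions: not given in the sources used here. Scanner files were not used here, so signal over background was not checked per probe set. Arrays have no read depth, and the number of arrays limits the precision. Of 45101 probe sets, 64 controls were left out, and 34945 of the rest name 1 gene, 932 several and 9160 none.

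Groups were compared with limma 3.58.1 in R 4.3.3 (lmFit, eBayes, 2-sided, Benjamini-Hochberg over 45037 probe sets, called under 0.05), tested first on simulated data. Single probe sets and pairs of probe sets were compared with exact permutation tests over 20 arrangements in Python 3.11.15 with scipy 1.17.1, numpy 2.4.6, pandas 2.3.3 and matplotlib 3.10.9. The study's methods give no array method, so the methods' t-test was an alternative, with centring on array medians, quantile normalization, leaving out dim probe sets, a trended robust prior, array weights, a replicate block, averaging the probe sets of a gene and leaving out each array. Blocks for high Xist and for low poly-A controls were added after seeing the data. In the text no size is given where a group mean lies under the mean lower quartile of the arrays, while the figures draw such probe sets too.

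The members and gene lists were chosen with earlier results of these data known. All member probe sets are named; each list gives up to 5 called genes of largest difference and 2 of highest level among those not called, and each called member 3 genes of nearest profile. Marker lists of endothelial, T, B, skeletal muscle, nerve and thyroid cells were also measured: 1 of 8 endothelial genes was higher (limma) and 0 of 6, 3, 7, 3 and 3 in the others. Of the 22 genes of those others, 5 had an unadjusted p under 0.05 by limma, 1 higher and 4 lower. By the methods' t-test 4 did, 1 higher and 3 lower. Of all genes, 14.9% were higher and 9.81% lower unadjusted by limma, and 10.6% and 9.18% by the methods' t-test. Genes of the lists named by no probe set of 1 gene were not analysed here, and sequences came from the RefSeq promoter table on GRCm38.p6.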

Additional observations from a re-analysis of the deposited data

How the results depend on the processing

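Over the whole array 1069 probe sets were higher and 168 lower, and without 1 pool at a time 297 to 1268 and 23 to 583. Likewise without 1 pool, 2 to 3 AP-1 probe sets and 2 to 3 AP-1 genes were higher, 0 to 2 partners, 0 to 2 upstream genes, and 6 to 11 targets higher and 0 to 1 lower. Centring gave 111 lower probe sets and 4 upstream genes higher. Quantile normalization gave 547 higher probe sets, 0 partners and 1 upstream gene. Leaving out dim probe sets gave 1 AP-1 probe set and 1 AP-1 gene lower, both Atf3. The methods' t-test gave 0 higher and 1 lower probe sets over the array (3558 and 4806 unadjusted) and 0 AP-1 probe sets, 0 AP-1 genes, 0 partners, 0 upstream genes and 0 targets higher or lower, with 4, 3, 5, 6 and 15 higher unadjusted. The block for high Xist gave 174 higher and 18 lower probe sets, 0 partners, 1 upstream gene and 4 targets. The block for low poly-A controls gave 52 higher and 3 lower, 1 AP-1 probe set and 1 AP-1 gene (Fos, adjusted p = 0.042), 0 partners, 0 upstream genes, and 2 targets higher and 0 lower. Averaging the probe sets of a gene gave 1 AP-1 gene higher, 1 lower and 0 partners. The cause of these moves was not tested. Differences near 0 changed sign. Without 1 pool at a time Fosl1 1417487_at ranged from -0.31 to 0.30, Fosb from -0.50 to 0.53 and Fosl2 1437247_at from -0.14 to 0.58. Fosl1 1417487_at read 0.05 with centring and 0.12 with the block for high Xist. With quantile normalization Fosb read -0.11 and Fosl2 1437247_at -0.04, and Jun 1417409_at read 0.45 with the block for high Xist. Of the other values for single AP-1 probe sets, 186 kept their direction and side of the threshold, 11 lost a call and 2 gained one.

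Same-numbered pools had correlations of -0.15, -0.000604 and 0.027 between their deviations from the group means. Differently numbered pools ran from -0.125 to 0.127. With 3 pools a group these values show no pairing by replicate number and cannot exclude one. With the replicate block, 659 probe sets were higher and 71 lower, 1 upstream gene was higher, and Jund 1440265_at had an adjusted p of 0.0584 with 2 AP-1 probe sets higher.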
